A study of Rattus norvegicus with 18 samples.

Results

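Gene expression in the arcuate nucleus (ARC) was compared with that in the nucleus tractus solitarius (NTS) of ovariectomized (OVX) rats. RNA from bilateral tissue punches of 3 brain regions was measured on Rat Clariom S Pico arrays, and 12 of the 18 samples enter the comparison, 6 labelled ARC and 6 labelled NTS. All animals were 90-day-old female Sprague-Dawley rats without ovaries. They received 10 µg of 17β-estradiol benzoate (EB) in 0.1 mL of oil, or oil alone (Oil), under the skin on days 1 and 2, and tissue was taken on day 4. The 4 groups are therefore ARC EB, ARC Oil, NTS EB and NTS Oil, with 3 samples each, and the 6 samples of the third region, the paraventricular nucleus (PVN), are used only where ARC is set beside it. Treatment was a covariate in the fit, and every one of the 23188 gene probe sets on the array was tested, whatever its level. The labels call the samples biological replicates and give 3 rats for each treatment, so samples of different regions may come from the same animals, but they do not say which samples share a rat. p-values measure only the spread between these samples.

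The ARC lies at the base of the hypothalamus beside the third ventricle and the median eminence. It is known for neurons that make pro-opiomelanocortin or agouti-related peptide, which act in opposite ways on food intake, and for neurons that read circulating hormones, estradiol among them. The NTS lies in the dorsal medulla, receives the sensory fibers of the vagus nerve from the gut, and sends signals of meal size forward to the hypothalamus. It borders the area postrema, the dorsal motor nucleus of the vagus and the fourth ventricle with its choroid plexus.

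Signals are log2 intensities between 3.27 and 17.91 over these 12 arrays, with array medians of 7.95 to 8.0 in ARC samples and 7.74 to 7.95 in NTS samples. The median of the 23 background probe sets lay between 7.41 and 7.6 on 11 of the arrays and at 6.74 on ARC Oil 1, and 53.0% to 60.7% of gene probe sets lay above it. The first principal component held 55.0% of the variance and put the 6 ARC samples on one side and the 6 NTS samples on the other. The arrays NTS Oil 1 and NTS Oil 2 were much alike: among 7281 probe sets with a mean signal over 10, the SD of their difference was 0.167 log2 units, where other NTS pairs gave 0.223 to 0.696. Several punches held signal of neighbouring tissue, described below with the values of each sample. The counts and the named genes were also computed with the 2 like NTS samples averaged into 1, and without the samples that stood apart.

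A gene was called when its Benjamini-Hochberg adjusted p from limma was under 0.05 and its fold change was 2 or more. Of the 23188 gene probe sets, 1634 (7.05%) were called, of which 953 (4.11%) were higher and 681 (2.94%) were lower in ARC. With no fold minimum, 9833 (42.4%) had an adjusted p under 0.05, so the fold minimum decides most of the count. The median difference over all probe sets was 0.06 log2 units. The 6 ARC and the 6 NTS samples did not overlap in 4698 probe sets (20.3%), a group that held 726 of the higher and 481 of the lower calls. Differences of 16-fold or more were fitted for 22 higher and 29 lower probe sets. In 259 of the higher calls every NTS sample, and in 122 of the lower calls every ARC sample, lay below the background median of its own array. Where a fold is printed for such a gene, it is given as at least the distance from background. No fold is given for the 93 higher and 75 lower calls where all 12 samples lay below it. Differences in log2 units are as fitted, also where a whole region lay below background. In tissue punches, fewer cells of a type and less RNA per cell cannot be told apart.

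**Figure D1:**
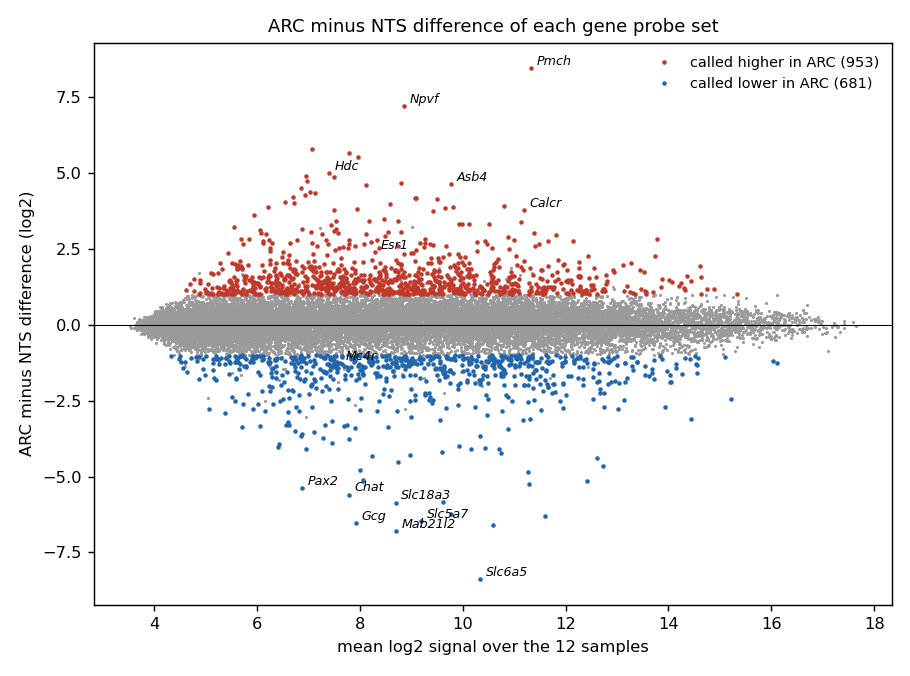
ARC minus NTS difference (vertical axis, log2 units) against the mean signal of the 12 samples (horizontal axis, log2) for each of the 23188 gene probe sets. Coloured points are the 953 called higher and the 681 called lower in ARC, and the names mark some of the genes described in the text, among them Pmch at 8.46 and Slc6a5 at -8.39.

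The largest differences in each direction belonged to genes that mark a neuron type. Pmch, which encodes melanin-concentrating hormone, had ARC signals of 13.93 to 16.93 (median 15.93), against NTS signals of 5.03 to 9.81 (median 6.10). All ARC samples lay above all NTS samples, and within the NTS only EB 1 (9.81) and EB 2 (9.52) lay above background. The difference was 8.46 ± 0.78 log2 units (± moderated SE here and below) (limma adjusted p = 1.41e-05), and it was 7.85 without NTS EB 3. In the rat Pmch is made mainly by neurons of the lateral hypothalamus and zona incerta, which lie outside the ARC, and PVN samples carried it too, at 10.22 to 16.93. Npvf, the precursor of the RFamide peptides that restrain gonadotropin release, ran from 9.87 to 14.05 (median 12.69) in ARC and from 4.84 to 5.52 (median 5.37) in NTS. It was at least 32.2-fold higher in ARC (7.21 ± 0.58, adjusted p = 5.78e-06), with ARC Oil 1 the lowest ARC sample; without it the difference was 7.81.

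In the other direction, Slc6a5, the glycine transporter that marks glycinergic neurons, ran from 5.84 to 6.47 (median 6.18) in ARC and from 14.04 to 15.62 (median 14.33) in NTS. No ARC sample was above background, so the gene was at least 137-fold lower in ARC (-8.39 ± 0.24, adjusted p = 9.25e-10). Mab21l2, a gene of neural patterning, gave 4.84 to 5.77 (median 5.21) in ARC and 11.58 to 12.93 (median 12.02) in NTS and was at least 25.5-fold lower (-6.81 ± 0.22, adjusted p = 1.55e-09). Both genes were tight within each region, with a gap of several log2 units and no sample between. Gcg, the preproglucagon gene from which NTS neurons make glucagon-like peptide-1, was below background in all ARC samples (4.34 to 5.11, median 4.57) and at 7.25 to 13.06 (median 11.73) in NTS. It was at least 13.6-fold lower in ARC (-6.54 ± 0.74, adjusted p = 5.35e-05). The sample NTS Oil 3 alone was near background at 7.25, and without it the difference was -7.34.

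The promoters of the 2 named genes with the largest differences in each direction that RefSeq's table holds (build GRCr8) are shown to set the sequence before the start of such region-bound genes side by side. Each is the 250 bases before the start, 5′ to 3′ on the gene's strand, and capitals mark matches to the motifs searched. Npvf lies at chr4:81047046-81047295 on the minus strand, Pomc at chr6:32659103-32659352 on the plus strand, Slc6a5 at chr1:108781303-108781552 on the plus strand and Gcg at chr3:67531534-67531783 on the minus strand.
Npvf: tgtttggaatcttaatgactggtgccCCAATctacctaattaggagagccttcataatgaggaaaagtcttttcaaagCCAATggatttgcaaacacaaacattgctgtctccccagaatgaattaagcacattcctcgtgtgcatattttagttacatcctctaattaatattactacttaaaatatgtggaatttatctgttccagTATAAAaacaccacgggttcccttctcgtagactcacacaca
Pomc: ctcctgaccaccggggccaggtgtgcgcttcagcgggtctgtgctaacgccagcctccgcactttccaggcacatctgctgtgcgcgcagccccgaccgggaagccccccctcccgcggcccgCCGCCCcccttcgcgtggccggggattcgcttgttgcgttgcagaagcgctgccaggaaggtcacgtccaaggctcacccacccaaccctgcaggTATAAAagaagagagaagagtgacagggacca
Slc6a5: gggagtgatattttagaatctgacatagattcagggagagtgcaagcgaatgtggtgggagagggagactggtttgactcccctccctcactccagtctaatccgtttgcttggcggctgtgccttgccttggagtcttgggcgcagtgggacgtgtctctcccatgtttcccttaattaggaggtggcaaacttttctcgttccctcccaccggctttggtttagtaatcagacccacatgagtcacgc
Gcg: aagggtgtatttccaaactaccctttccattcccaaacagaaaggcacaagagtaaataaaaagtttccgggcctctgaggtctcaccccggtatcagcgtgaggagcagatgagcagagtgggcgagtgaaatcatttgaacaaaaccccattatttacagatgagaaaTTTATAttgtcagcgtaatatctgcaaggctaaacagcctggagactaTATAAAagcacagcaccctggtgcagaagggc
The motifs searched, on both strands, were TATAAA (the TATA box), GGGCGG (the GC box), CCAAT (the CCAAT box), TGACGTCA (the cyclic AMP response element) and the palindromic estrogen response element. TATAAA stood 42 bases before the start of Npvf and 32 bases before that of Pomc and of Gcg, with another in Gcg at 80 bases on the opposite strand. Npvf also held CCAAT at 224 and 172 bases, Pomc held GGGCGG on the opposite strand at 127 bases, and none of the motifs was in the window of Slc6a5. TATAAA was found in 8.38% of the 537 promoters of genes called higher and in 6.94% of the 389 of genes called lower, against 11.2% of the 12435 promoters of all genes measured. GGGCGG was in 53.8% and 55.8% of them, against 47% of all, and CCAAT in 32.4% and 37%, against 35.2%. TGACGTCA was in 1.86% and 2.06%, against 2.36%. The estrogen response element was in 0 of the higher and 0 of the lower genes' windows, and in 3 (0.0241%) of all.

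**Figure D2:**
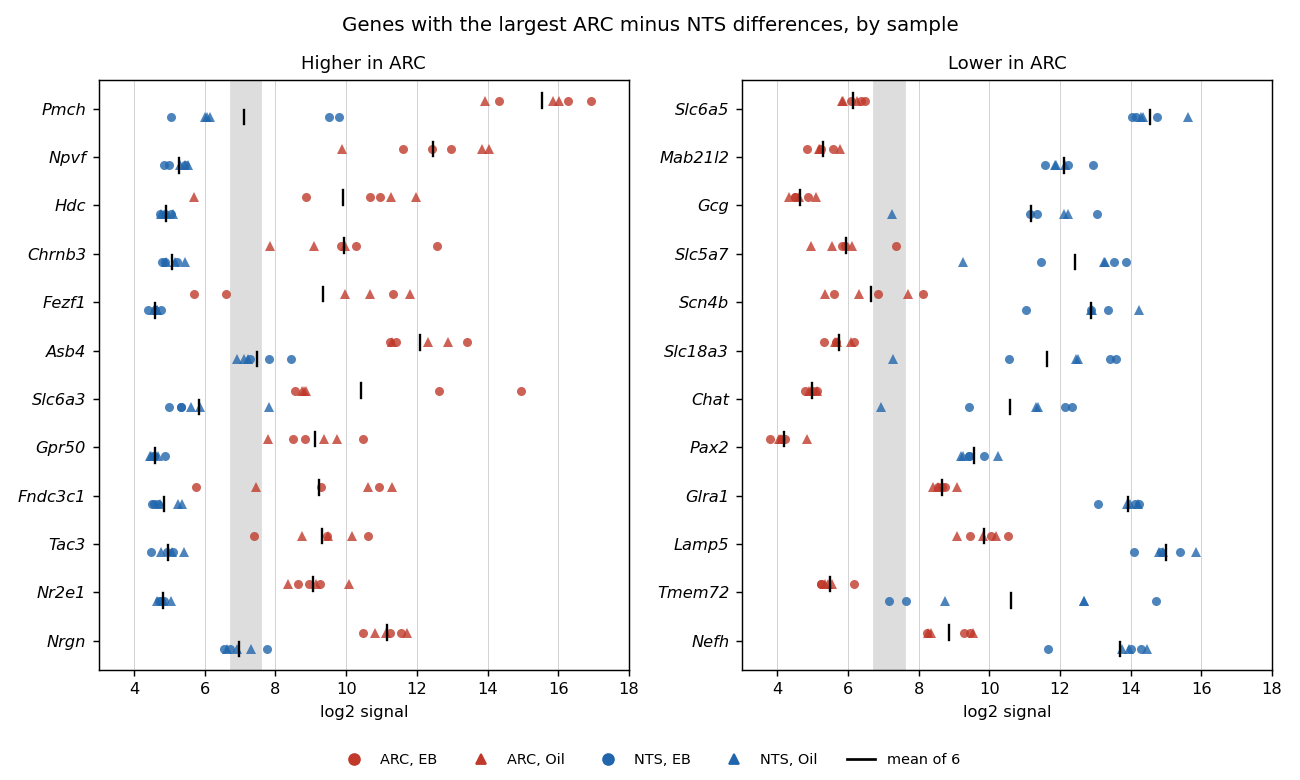
Signal (log2) of each sample for the 12 genes with the largest difference in each direction and no overlap between regions. Red marks are ARC and blue marks NTS samples, circles are EB and triangles Oil, black ticks are means of 6 samples, and the grey band is the range of the arrays' background medians. Most of the low groups lie inside or under the band, as for Npvf in NTS and Slc6a5 in ARC.

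Neuropeptides of the hypothalamus were higher in ARC or not called. Of 28 measured, 12 rose and none fell in ARC, where 4.11% of all probe sets were called higher. The lowest difference was -1.28, and 1 member was called lower when ARC Oil 1 or NTS Oil 3 was left out. The median difference of the 28 was 1.23, or 0.53 with genes below background in one region set to their bound, against 0.06 for all probe sets. Pomc, the precursor of α-melanocyte-stimulating hormone, ran from 5.38 to 13.71 (median 10.77) in ARC and from 4.35 to 5.42 (median 5.03) in NTS. It was at least 9.01-fold higher in ARC (5.66 ± 1.09, adjusted p = 0.00159), although ARC EB 2, at 5.38, lay among the NTS samples. Without that sample the difference was 6.72, and without ARC EB 1 it was 4.95. Tac3, which encodes neurokinin B, was at 7.40 to 10.62 in ARC and 4.49 to 5.42 in NTS (4.35 ± 0.43, at least 3.62-fold, adjusted p = 2.13e-05), again with ARC EB 2 lowest. Cartpt, the precursor of the satiety peptide CART, was bright in both regions, at 14.34 to 16.07 (median 15.16) in ARC and 10.34 to 13.58 (median 12.57) in NTS. It was 7.09-fold higher in ARC (2.83 ± 0.44, adjusted p = 0.000425), and NTS Oil 3 was the low NTS sample.

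The other members called were Pdyn, Gal, Galp, Oxt, Hcrt, Tac1 and Cck. Of these, Galp lay below background in all 12 samples. Gal, galanin (1.22 ± 0.41), lost its call without ARC EB 1, ARC Oil 2, NTS EB 2 or NTS Oil 3 (0.81 to 1.22), and Cck, cholecystokinin (1.25 ± 0.46), lost it without any sample but ARC EB 1, ARC Oil 1, ARC Oil 2 and NTS Oil 3 (0.98 to 1.21). Pdyn, the dynorphin precursor, was higher by 2.04 ± 0.47, with 4 of 6 NTS samples below background, and Tac1, the substance P precursor, 3.69-fold higher in ARC (1.88 ± 0.35). Hcrt, the orexin gene of the lateral hypothalamus, had 7.64 to 10.77 in ARC against 6.01 to 7.0 in NTS. Oxt, the oxytocin gene of the PVN and supraoptic nucleus, was at 14.52 in ARC Oil 1 and at 7.02 to 7.92 in the other 5 ARC samples, and all 6 NTS samples were below background. The call (2.98 ± 0.95, adjusted p = 0.0242) was kept without ARC Oil 1, at a difference of 1.89. Avp, the vasopressin gene, was likewise at 14.12 in ARC Oil 1 and at 6.68 to 7.10 in the rest, and its difference of 1.80 ± 1.02 did not pass (adjusted p = 0.177).

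Both peptides of the feeding-promoting ARC neuron fell short of the call. Npy, neuropeptide Y, had 12.65 to 14.49 (median 13.61) in ARC and 9.69 to 13.41 (median 12.62) in NTS. The regions overlapped, and the difference of 1.38 ± 0.57 had an adjusted p of 0.0675. Agrp, agouti-related peptide, was above background in only 3 ARC samples (9.55 in Oil 2, 7.82 in EB 1 and 6.86 in Oil 1), for a difference of 1.06 ± 0.45 (adjusted p = 0.074). ARC Oil 1 passed only the lower floor of its own array (6.74), and ARC EB 3 and ARC Oil 3, both at 6.81, did not pass theirs. Without NTS EB 3 Npy was called (1.64, adjusted p = 0.0353), as was Agrp without ARC EB 2 (1.29, adjusted p = 0.0354). Ghrh, the growth hormone-releasing hormone made in the ARC, was below background in all 12 samples. Among releasing hormones of the PVN, Crh differed by -0.07 ± 0.18 (adjusted p = 0.778), with 3 ARC and 4 NTS samples below background. Trh, at 7.81 in ARC Oil 1, was below background in the other 5 ARC samples and in all NTS samples (0.84 ± 0.44, adjusted p = 0.141).

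Genes that define the transmitter of a neuron differed in both directions. Of 20 genes of transmitter synthesis and transport measured, 5 were called higher and 8 lower in ARC, against 4.11% and 2.94% of all probe sets. The 3 cholinergic genes were lower: Slc5a7, the choline transporter, had 4.97 to 7.35 (median 5.87) in ARC and 9.26 to 13.86 (median 13.26) in NTS and was at least 32.1-fold lower (-6.48 ± 0.67, adjusted p = 2.76e-05). Slc18a3, the vesicular acetylcholine transporter, was at least 18.3-fold lower (-5.87 ± 0.85), and Chat, choline acetyltransferase, at least 8.89-fold lower (-5.60 ± 0.73). In all 3 NTS Oil 3 was lowest, at 9.26, 7.29 and 6.95, and without it the differences were -7.08, -6.74 and -6.33. Motor neurons of the neighbouring vagal nucleus share these genes, and all 3 are among the 8 motor neuron markers. The mean signal over the 8 was 9.90 to 10.77 in 4 NTS samples, 8.53 in NTS EB 3 and 7.23 in NTS Oil 3, against 6.13 to 6.83 in ARC samples. How much of the cholinergic difference lies with motor neurons was not tested.

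The remaining lower genes of this list were Slc6a5, Slc32a1, Dbh, Slc6a2 and Tph2. Slc32a1, the vesicular transporter that GABA and glycine share, differed by -1.21 ± 0.23, with 4 of 6 ARC samples below background, whereas the GABA-synthesizing enzymes Gad1 (0.92 ± 0.23) and Gad2 (0.17 ± 0.25) stayed within 2-fold. Tph2, the enzyme of serotonin synthesis, was below background in every ARC sample and at 6.49 to 8.94 in NTS samples (-3.34 ± 0.40, adjusted p = 7.8e-05). On the ARC side stood Hdc, which makes histamine in the tuberomammillary nucleus, with 5.69 to 11.98 (median 10.81) against 4.74 to 5.11 (median 4.88) in NTS. It was at least 5.46-fold higher in ARC (5.0 ± 0.85, adjusted p = 0.000745). Only ARC Oil 1, at 5.69, lacked a signal above background, and without it the difference was 5.91.

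Slc6a3, the dopamine transporter, was at 14.95 in ARC EB 2, at 12.62 in ARC EB 3 and at 8.56 to 8.85 in the other 4 ARC samples, against 4.99 to 7.82 in NTS. The regions did not overlap (4.60 ± 1.03, adjusted p = 0.00384), and the difference was 3.70 without ARC EB 2. The mean over 8 markers of midbrain dopamine neurons was 9.99 in ARC EB 2 and 9.05 in ARC EB 3. It was 7.4 to 8.0 in the other ARC samples and 7.39 to 7.97 in NTS samples. Slc6a3 is itself among the 8, so this mean is not independent of it. The part of these cells in the Slc6a3 result was not tested. Th, tyrosine hydroxylase, had 9.87 to 14.31 in ARC and 7.50 to 12.12 in NTS, with no call (0.89 ± 0.74, adjusted p = 0.359). The vesicular glutamate transporters Slc17a6 (1.10 ± 0.26) and Slc17a8 (2.22 ± 0.13) and the monoamine transporter Slc18a2 (1.20 ± 0.40, adjusted p = 0.0306) rose as well. For Slc17a8 every NTS sample was below background, and the rise was at least 1.11-fold. Slc17a6 fell short of 2-fold without NTS EB 2 (0.99), and Slc18a2 lost its call without ARC EB 1, ARC EB 2, ARC Oil 2, ARC Oil 3, NTS EB 2, NTS EB 3 or NTS Oil 3 (0.94 to 1.16), so that 3 of the 20 were higher without NTS EB 2.

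Receptor subunits for the same transmitters followed in smaller steps. Among 20 GABA and glycine receptor genes, 6 rose and 1 fell in ARC, against 4.11% and 2.94% of all probe sets, with a median difference of 0.48. The one that fell, Glra1, the adult glycine receptor subunit of brainstem and spinal cord, had 8.42 to 9.09 (median 8.61) in ARC and 13.07 to 14.24 (median 14.05) in NTS and was 38.0-fold lower (-5.25 ± 0.19, adjusted p = 4.69e-09). The subunits Glra2 (1.01 ± 0.19) and Glra3 (1.24 ± 0.22) were higher in ARC, Glra2 so close to 2-fold that it fell short without ARC EB 2, ARC EB 3, ARC Oil 2, NTS EB 1, NTS EB 2 or NTS Oil 3 (0.88 to 0.99). GABA receptor subunits that rose were Gabre (1.84 ± 0.31), Gabrq (1.41 ± 0.36), Gabra5 (1.37 ± 0.24) and Gabra4 (1.35 ± 0.28). For Gabre every NTS sample was below background, and the rise was at least 2.04-fold. Of 22 glutamate receptor genes, 5 rose and 2 fell, with a median of 0.20. Grm2, an autoreceptor of glutamate terminals, led the rise at 9.97-fold (10.02 to 14.14 in ARC against 8.34 to 9.14 in NTS, 3.32 ± 0.56), followed by Grik3 (1.96 ± 0.32), Gria1 (1.58 ± 0.20) and Grm5 (1.45 ± 0.17). Grin3b (-1.76 ± 0.35, every ARC sample below background) and Grm3 (-1.35 ± 0.36) fell. The nicotinic receptor subunit Chrnb3, in no list but among the genes with the largest differences, ran from 7.85 to 12.58 in ARC and stayed below background in all NTS samples (4.88 ± 0.53, at least 5.59-fold).

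On the NTS side, 7 of 15 genes of dorsal vagal complex neurons fell and 1 rose in ARC, where 2.94% of all probe sets were called lower. Their median was -1.16, though it was 0.00 with genes below background set to their bound, since 5 of the 15 lay below background in all 12 samples and others in all ARC samples. Besides Gcg and Chat, those that fell were Prph, peripherin of neurons with peripheral axons (16.9-fold, -4.08 ± 0.43, 7.12 to 9.30 in ARC against 11.25 to 13.68 in NTS), Npff, neuropeptide FF (-1.74 ± 0.45), and Prlh, prolactin-releasing peptide (-1.62 ± 0.41, with 5 of 6 ARC samples below background). Dbh, the enzyme that makes noradrenaline, had 3.95 to 4.63 in ARC and 4.77 to 7.33 in NTS (-2.37 ± 0.38, adjusted p = 0.000505). Its 6 NTS signals all lay below background, as did those of Phox2a, a factor of noradrenergic neurons, so these 2 defining genes do not mark the NTS punches by level. The mean over the 15 genes was 8.59 to 9.06 in 5 NTS samples but 7.04 in NTS Oil 3, inside the ARC range of 6.91 to 7.42. NTS Oil 3 is thus the one NTS sample that the mean over the list does not separate from ARC. Its Slc6a5 (15.62) and Pax2 (10.24) signals were nevertheless the highest of the 6. Gene by gene, 6 of the 15 did not overlap between the regions, where 20.3% of all probe sets did not. Among them were Gcg, Chat, Prph and Dbh, lower in ARC, and Calcr, higher in ARC.

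Receptors for feeding peptides moved in both directions, and the pair of neural melanocortin receptors moved in opposite ones. Mc3r had 7.48 to 10.14 (median 8.64) in ARC and 4.59 to 4.85 (median 4.71) in NTS, at least 2.42-fold higher in ARC (4.01 ± 0.34, adjusted p = 7.69e-06). Mc4r had 6.89 to 7.14 (median 6.96) in ARC and 7.97 to 8.38 (median 8.29) in NTS, a fall of 2.40-fold (-1.26 ± 0.09, adjusted p = 2.71e-06), with 5 of 6 ARC samples below background and no overlap. The exception, ARC Oil 1 at 6.99, passed only the lower floor of its own array (6.74). Calcr, the calcitonin receptor that amylin acts through, was strong in both regions, at 11.96 to 13.85 (median 13.18) in ARC and 8.88 to 9.82 (median 9.27) in NTS. It was 13.7-fold higher in ARC (3.78 ± 0.26, adjusted p = 2.14e-06), although it stands in the list of dorsal vagal complex genes.

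In all, 14 of 46 measured receptors of neuropeptides and feeding signals rose and 3 fell in ARC, with a median of 0.33. Of all probe sets, 4.11% rose and 2.94% fell. The receptors of neuropeptide Y were among those that rose, Npy1r at 9.05 to 10.60 against 7.38 to 8.49 in NTS (3.99-fold, 2.00 ± 0.24) and Npy2r by 1.92 ± 0.42 with 3 of 6 NTS samples below background. Gpr83 (6.34-fold, 2.66 ± 0.30) and Nmur2, a neuromedin U receptor (2.30 ± 0.49, at least 2.09-fold, every NTS sample below background), rose as well. So did Grpr, the gastrin-releasing peptide receptor (2.14 ± 0.22), Rxfp3, the relaxin-3 receptor (1.65 ± 0.24), and Cckbr, the cholecystokinin B receptor (1.23 ± 0.24), each with 5 of 6 NTS samples below background. Tacr1, the substance P receptor (-1.77 ± 0.41), and Nmbr, the neuromedin B receptor (-1.77 ± 0.16, every ARC sample below background), fell with Mc4r. Ghsr, the ghrelin receptor, had 9.24 to 9.78 in ARC and 8.46 to 8.77 in NTS, a difference without overlap that was under 2-fold (0.85 ± 0.11, adjusted p = 0.000123). Oxtr, the oxytocin receptor, was below background in all 12 samples, and Lepr and Cckar were not analysed here.

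Among 19 receptors of steroid, thyroid, prolactin and growth hormones and their orphan relatives, 5 rose and 1 fell, with a median of 0.52. Of all probe sets, 4.11% rose and 2.94% fell. Esr1, estrogen receptor α, had 7.78 to 10.91 (median 9.76) in ARC and 6.84 to 7.42 (median 7.10) in NTS. Every NTS sample was below background and no sample overlapped, so Esr1 was at least 4.11-fold higher in ARC (2.39 ± 0.39, adjusted p = 0.00052). ARC EB 2 (7.78) and ARC EB 3 (8.56) were the lowest ARC samples. The difference was 1.79 among EB and 2.99 among Oil samples, and the test of that gap gave -1.21 with an adjusted p of 0.84. Against PVN, Esr1 differed by -0.08 over all samples and by -1.04 without PVN Oil 1 (7.85) and PVN Oil 3 (8.22), the other PVN samples having 10.00 to 11.06. Esr2 and Gper1, the other estrogen receptors, were below background throughout, and Pgr, the progesterone receptor, differed by 0.24 ± 0.21 (adjusted p = 0.398). The others that rose were Rxrg, a retinoid partner receptor (at least 6.14-fold, 3.07 ± 0.30), Nr2f2 (3.33-fold, 1.74 ± 0.31), Ghr, the growth hormone receptor (2.56-fold, 1.36 ± 0.31), and Rorb (2.09-fold, 1.06 ± 0.12). Nr3c2, the mineralocorticoid receptor, which in the NTS serves aldosterone-sensitive neurons, was 2.43-fold lower in ARC (9.56 to 10.44 against 10.76 to 11.63 in NTS, -1.28 ± 0.17).

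Genes known from the mouse as imprinted, that is expressed from a single parental copy, included 6 that rose and none that fell of 14 measured (median 0.66). Of all probe sets, 4.11% rose and 2.94% fell. Asb4 had 11.23 to 13.41 (median 11.87) in ARC and 6.90 to 8.45 (median 7.25) in NTS (4.63 ± 0.39, adjusted p = 8.22e-06), with 4 of 6 NTS samples below background. Plagl1, a zinc finger regulator of growth, was 15.1-fold higher (3.92 ± 0.54), Dlk1, a Notch ligand relative, 3.72-fold higher (1.89 ± 0.30), and Nnat and Ndn 2.51-fold and 2.38-fold higher, the sixth being Calcr. Genes of dense core granules and prohormone processing included a single call among 11, against 4.11% of all probe sets called higher, from which nothing is read for a group of this size. The call was Pam, which amidates peptides, at 14.002 to 14.78 against 12.38 to 12.79 in NTS (3.51-fold, 1.81 ± 0.10). The group's median was 0.42, and Pcsk2, Nucb2 and Scg2 lay at 0.95, 0.92 and 0.73, each with an adjusted p under 0.05 and under 2-fold.

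Developmental transcription factors differed between the regions in both directions. Of 32 measured factors of forebrain and hypothalamus, 16 rose, against 4.11% of all probe sets, and none fell in ARC, with a median of 1.01. In 16 of the 32 all 12 samples lay below background, among them the called Nkx2-1, Rax and Lhx6, so that the median is 0.00 with genes set to their bound. Fezf1, a factor of the ventromedial hypothalamus, had 5.69 in ARC EB 2, 6.61 in ARC EB 3 and 9.98 to 11.80 in the other 4 ARC samples, against 4.40 to 4.75 in NTS (4.74 ± 0.85, at least 3.71-fold). Without ARC EB 2 its difference was 5.39, and without ARC EB 1 it was 4.14. Lhx2, a factor of forebrain progenitors and tanycytes, was at least 5.42-fold higher (7.73 to 11.19 in ARC against 5.90 to 7.11 in NTS, 3.41 ± 0.50). Sim1, the master factor of PVN neurons, differed by 3.89 ± 0.33 (at least 1.64-fold, every NTS sample below background). Emx2 differed by 3.23 ± 0.16, from ARC signals of 6.71 to 7.64 of which 4 lay below background, as did all its NTS signals. Fezf2, Dlx2, Six3, Isl1, Lhx1, Tbx3, Six6, Foxb1 and Otp were called as well, at 1.3 to 3.05, of which Tbx3 (1.86 ± 0.59) lost its call without ARC Oil 2 (1.49). Nkx2-1 (1.10) fell short of 2-fold without ARC EB 1 or ARC Oil 3 (0.97 and 0.99), and Lhx6 (1.02) without ARC EB 2, ARC EB 3, ARC Oil 1, NTS EB 1 or NTS EB 2 (0.91 to 0.99). Outside the list, Nr2e1, the tailless receptor of neural stem cells, ran from 8.34 to 10.08 in ARC against 4.64 to 5.03 in NTS (4.26 ± 0.23, at least 3.06-fold, adjusted p = 2.93e-07).

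Hox genes, which pattern the hindbrain and spinal cord and are silent in the forebrain, differed the other way. Of 23 measured, 10 fell and none rose in ARC, where 2.94% of all probe sets fell. An unadjusted p under 0.05 was found for 16 of them, and for 11695 of all 23188 probe sets. Hoxb5 had 7.21 to 7.88 (median 7.49) in ARC and 10.81 to 12.35 (median 11.76) in NTS, a difference of -4.19 ± 0.19 (adjusted p = 3.78e-08) with 3 of 6 ARC samples below background. Hoxa2 was at least 3.29-fold lower (5.19 to 5.58 in ARC against 8.93 to 9.51 in NTS, -3.72 ± 0.12), Hoxc4 at least 2.39-fold (-3.68 ± 0.17) and Hoxb3 at least 1.54-fold (-2.89 ± 0.18). Hoxa6 (-2.77 ± 0.27) was above background in 3 NTS samples. The other 5 that fell, Hoxb4, Hoxb8, Hoxc5, Hoxd1 and Hoxd3, were below background in all 12 samples, as were the 13 that were not called, and Hoxd1 (-1.09) fell short of 2-fold without NTS Oil 3 (-0.94). The 10 measured members of paralog groups 9 to 13, which pattern the trunk and tail, are all among those 13. All 6 NTS samples, Oil 3 included, lay above the ARC samples in the mean over the 23 genes, at 5.63 to 5.96 against 4.54 to 4.64.

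Of 17 factors of the hindbrain and medulla, 6 fell and 1 rose in ARC, against 2.94% and 4.11% of all probe sets. Pax2, which specifies inhibitory neurons of the dorsal hindbrain, had 3.79 to 4.85 (median 4.11) in ARC and 9.19 to 10.24 (median 9.43) in NTS, at least 4.39-fold lower (-5.38 ± 0.20, adjusted p = 6.61e-09). Its relative Pax8 was at least 1.95-fold lower (-3.92 ± 0.13), Evx1 at least 1.15-fold (-2.62 ± 0.12), and Tfap2b differed by -2.20 ± 0.37, with every ARC sample below background. Gbx2 and Nkx6-1 were called lower from signals below background in all 12 samples. The one that rose was Egr2, at 6.12 to 7.74 against 5.68 to 6.31 in NTS (1.05 ± 0.25), a segmentation gene of the embryonic hindbrain that in adult neurons responds to activity. Of its ARC signals 5 lay below background, and it fell short of 2-fold without ARC EB 2, ARC Oil 2, ARC Oil 3 or NTS EB 1 (0.89 to 0.99). The activity genes Egr1 (2.91-fold, 1.54 ± 0.41) and Npas4 (1.48 ± 0.19, 4 ARC samples below background) also rose. They were the only 2 called of 9 immediate early genes, against 4.11% of all probe sets called higher, and Fos was at 0.24 ± 0.17.

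**Figure D3:**
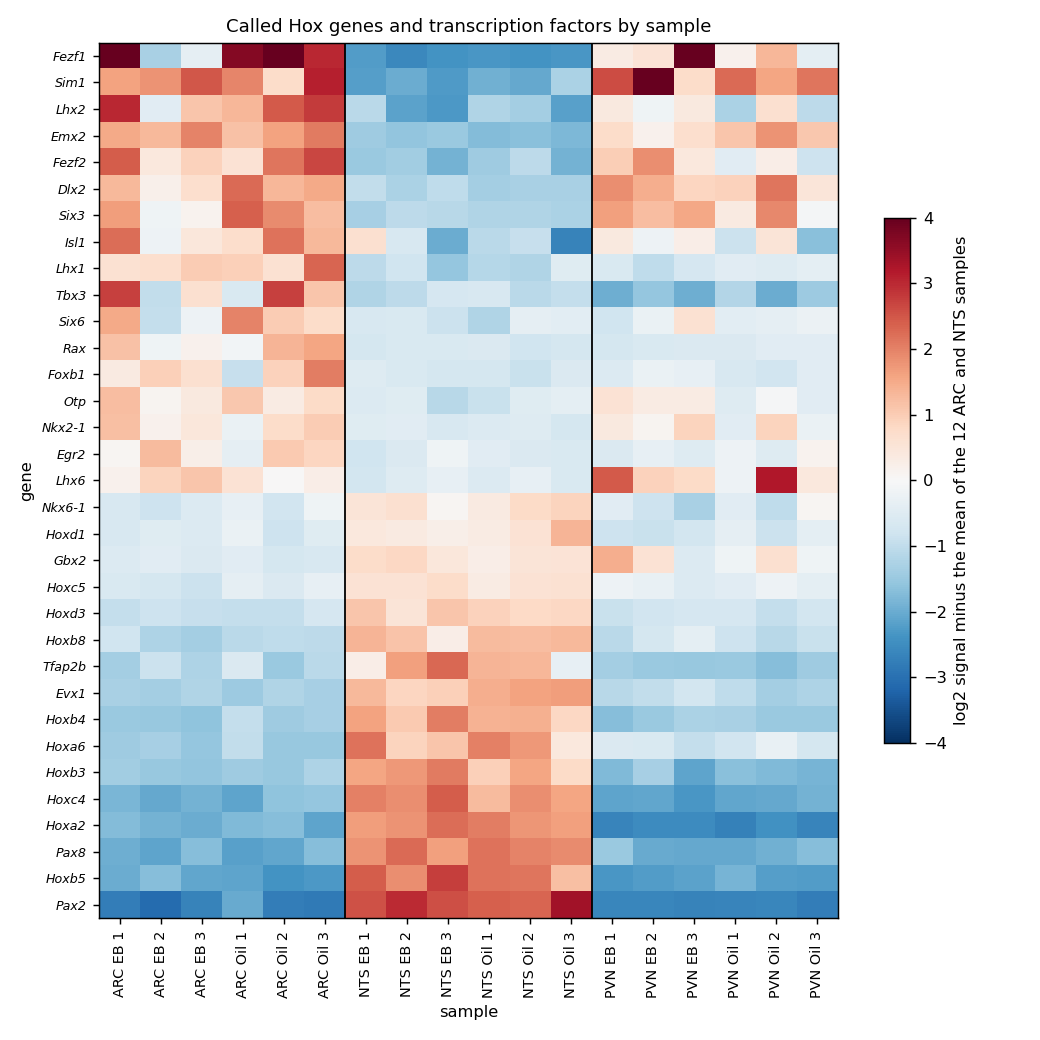
Signal of each called transcription factor (Hox genes, factors of the hindbrain and of the forebrain) in each ARC, NTS and PVN sample, as the deviation from that gene's mean over the 12 ARC and NTS samples (log2 units, colour limits at 4 in each direction). The Hox genes are above that mean in all 6 NTS samples and below it in all 6 ARC samples, Pax2 and Pax8 likewise, and most forebrain factors are the reverse, with Fezf1 low in ARC EB 2 (5.69) and ARC EB 3 (6.61).

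Genes of thick, fast-conducting axons had the largest share of calls among the 29 lists. Of 16 measured, 14 fell in ARC, against 2.94% of all probe sets, and none rose, with a median of -2.52. Only Pvalb (-1.40 ± 0.55, adjusted p = 0.0589) and Kcnc1 (-0.95 ± 0.27) were not called. Scn4b, the β4 subunit that gives sodium channels their resurgent current, had 5.36 to 8.13 (median 6.59) in ARC and 11.04 to 14.23 (median 12.91) in NTS (-6.22 ± 0.56, adjusted p = 1.19e-05), with 4 of 6 ARC samples below background. The neurofilaments fell together, Nefh by 28.6-fold (8.23 to 9.53 in ARC against 11.67 to 14.45 in NTS, -4.84 ± 0.44), Nefm by 21.0-fold (-4.39 ± 0.36) and Nefl by 16.8-fold (-4.07 ± 0.32). Spp1, osteopontin, which large brainstem neurons make, differed by -4.30 ± 0.64, with 3 of 6 ARC samples below background, and Syt2, the fast calcium sensor of transmitter release, 18.8-fold lower (-4.24 ± 0.37). NTS EB 3 was the lowest NTS sample for all 6 of these genes. Kcna2 (-1.08), a potassium channel beside the node of Ranvier, and Lynx1 (-1.10), a modulator of nicotinic receptors, were near 2-fold and fell short of it, Kcna2 without ARC Oil 1, ARC Oil 2 or NTS Oil 3 (-1.0 to -0.93) and Lynx1 without ARC EB 1 (-0.99). Lamp5, a vesicle protein of inhibitory neurons outside this list, was 35.2-fold lower (9.08 to 10.52 in ARC against 14.10 to 15.85 in NTS, -5.14 ± 0.30).

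Myelin genes were lower in ARC too, but with overlap in every case. Of 20 markers of mature oligodendrocytes, 14 fell, against 2.94% of all probe sets, and none rose (median -1.60). All 20 differences were below 0, as were 10206 of those of all 23188 probe sets. Mbp, myelin basic protein, had 10.02 to 13.56 (median 12.12) in ARC and 13.44 to 15.44 (median 14.30) in NTS (5.59-fold, -2.48 ± 0.61, adjusted p = 0.00675). Klk6 (-2.72 ± 0.72), Fa2h (-2.63 ± 0.56) and Hapln2 (-2.56 ± 0.57) moved alike. The mean over the 20 genes ran from 10.01 in ARC EB 1 to 12.54 in ARC Oil 1, and from 11.94 in NTS EB 3 to 13.73 in NTS Oil 3. The count rests on single samples, since 8 of the 20 were called without NTS Oil 3 or without ARC Oil 2, and 9 without ARC EB 1 or without ARC Oil 3. Precursor markers did not follow, since Bcas1 alone of 5 was called (-1.26 ± 0.41) and that call was lost without ARC EB 1, ARC Oil 2, NTS EB 1, NTS EB 2 or NTS Oil 3 (-1.22 to -0.96).

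Tanycytes are the radial glia of the third ventricle floor that border the ARC. Of 8 tanycyte markers 6 rose in ARC, against 4.11% of all probe sets, and none fell, with a median of 1.79. Gpr50, an orphan receptor of tanycytes, had 7.79 to 10.47 in ARC and 4.46 to 4.86 in NTS (4.51 ± 0.35, at least 3.17-fold), and Crym, which binds thyroid hormone in the cytosol, had 9.17 to 12.91 and 7.001 to 7.69 (4.13 ± 0.51, 3 of 6 NTS samples below background). Vim and Frzb were 3.82-fold and 3.13-fold higher. Dio2, the tanycyte enzyme that activates thyroid hormone, was within 2-fold (0.76 ± 0.28). Of 14 astrocyte markers only the glutamate transporter Slc1a3 was called (2.24-fold, 1.16 ± 0.17), against 4.11% of all probe sets called higher, and the median was -0.08. Limma called none of 15 microglia markers, yet 12 had an unadjusted p under 0.05 and all 15 differences were above 0 (median 0.63). Csf1r (0.83 ± 0.15) and Ptprc (0.82 ± 0.12) had the smallest p. For Ptprc 4 of 6 ARC and all NTS samples were below background. Among all 23188 probe sets, 11695 had an unadjusted p under 0.05 and 12982 differences were above 0. Of the 9 housekeeping genes none was called, although all 9 had an unadjusted p under 0.05, and their differences ran from -0.45 (Ppia) to 0.51 (B2m).

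**Figure D4:**
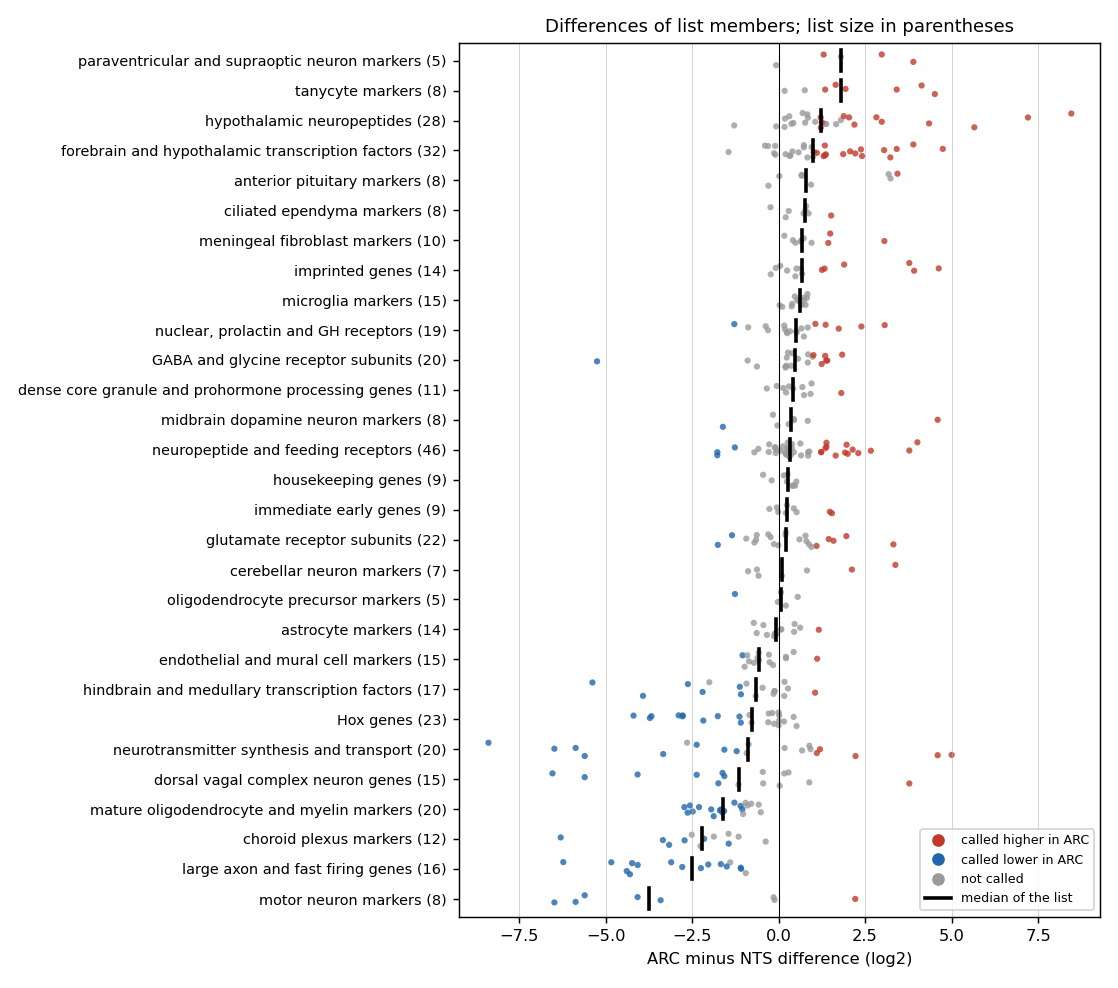
ARC minus NTS difference (log2 units) of each measured member of each gene list, with the list's median. Points right of 0 are higher and points left of 0 are lower in ARC, coloured where called, and black bars are medians. Neuropeptides (median 1.23), tanycyte markers (1.79) and forebrain factors (1.01) lie to the ARC side, and genes of large axons (-2.52), myelin (-1.60) and motor neurons (-3.74) to the NTS side.

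Markers of tissue next to the punches moved with single samples. Of 12 choroid plexus markers 6 were called lower in ARC, against 2.94% of all probe sets (median -2.21, or -1.07 at the bounds). The mean over the 12 was 13.05 in NTS EB 3, 10.67 in NTS Oil 1 and 10.71 in NTS Oil 2, against 6.16 to 7.26 in the other 3 NTS samples and 6.07 to 6.93 in ARC. Ttr, the plexus's transthyretin, ran from 7.35 to 9.96 in ARC and from 8.49 to 17.91 in NTS, a difference of -6.30 ± 1.43 (adjusted p = 0.00419) that was -5.42 without NTS EB 3 and -7.52 without NTS EB 1. Without those 3 NTS samples together it was -3.44 with an adjusted p of 0.0523, and none of the 12 plexus markers was then called lower while 2 were called higher. Tmem72, a gene outside the lists among the largest differences, followed the same samples, at 14.72, 12.69 and 12.69 in NTS EB 3, Oil 1 and Oil 2 against 7.17 to 8.74 in the other NTS samples and 5.23 to 6.18 in ARC (-5.11 ± 1.15, -4.12 without NTS EB 3 and -5.79 without NTS EB 1). Sostdc1 (-2.72 ± 0.79), Folr1 (-3.16 ± 1.18), Slc4a5 (-3.35 ± 1.17) and Kcne2 (-2.15 ± 0.65) had their highest signal in NTS EB 3 too and were -1.96, -2.04, -2.30 and -1.46 without it. Steap1 (-1.44) was -0.97 without NTS EB 3. Folr1 and Slc4a5 lost the call without any 1 ARC sample and without NTS Oil 1 or NTS Oil 2 (-3.29 to -2.87 and -3.49 to -2.97). Without NTS EB 2 they were -3.80 and -4.0, and Folr1 was -3.88 without NTS Oil 3 and Slc4a5 -3.96 without NTS EB 1.

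In ARC, the mean over 5 markers of paraventricular and supraoptic neurons was 10.49 in Oil 1 and 7.38 to 7.92 in the other samples. Oxt and Avp, described above, are among the 5 and carry this gap. The rest of the list did not set Oil 1 apart, with Crh at 7.13, Sim1 at 8.17 and Otp at 8.49. In the other ARC samples they ran from 6.96 to 7.65, 6.95 to 9.32 and 7.5 to 8.62. Markers of the anterior pituitary averaged 8.91 in ARC Oil 2 and 8.37 in ARC EB 3 against 6.45 to 7.55 in the other ARC samples and 5.97 to 6.13 in NTS. The glycoprotein hormone subunit genes Cga and Tshb reached 16.14 and 14.73 in ARC Oil 2, with differences of 3.23 ± 1.38 and 3.18 ± 1.26 that were not called (adjusted p = 0.0764 and 0.0592). Of the 8 markers 1 was called higher, against 4.11% of all probe sets, and 3 were without ARC EB 1 or without ARC Oil 3. Prl, prolactin, was highest in ARC EB 2 (11.57) and ARC EB 3 (11.20), with 6.30 to 10.09 in the other ARC samples and none above background in NTS (3.43 ± 0.71, at least 3.47-fold). Of 10 meningeal markers 3 rose, against 4.11% of all probe sets. They were Slc6a13 (3.06 ± 0.55), Col1a1 (1.49 ± 0.30) and Col1a2 (1.43 ± 0.46). Col1a2 lost its call without ARC EB 1, ARC EB 3, ARC Oil 1, NTS EB 2 or NTS Oil 3 (1.21 to 1.32). Of 15 endothelial and mural markers Abcb1a fell (-1.04 ± 0.36) and Tagln rose (1.11 ± 0.34), 1 in each direction, where the shares of all probe sets called were 2.94% lower and 4.11% higher. Both calls were lost without single samples. Abcb1a lost its call without ARC Oil 2 (-0.66), ARC Oil 3 (-1.07), NTS Oil 1 (-0.96), NTS Oil 2 (-1.04) or NTS Oil 3 (-0.92), and Tagln without ARC Oil 1 (0.86) or NTS EB 2 (0.90). The part of these neighbouring tissues in other differences was not tested.

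**Figure D5:**
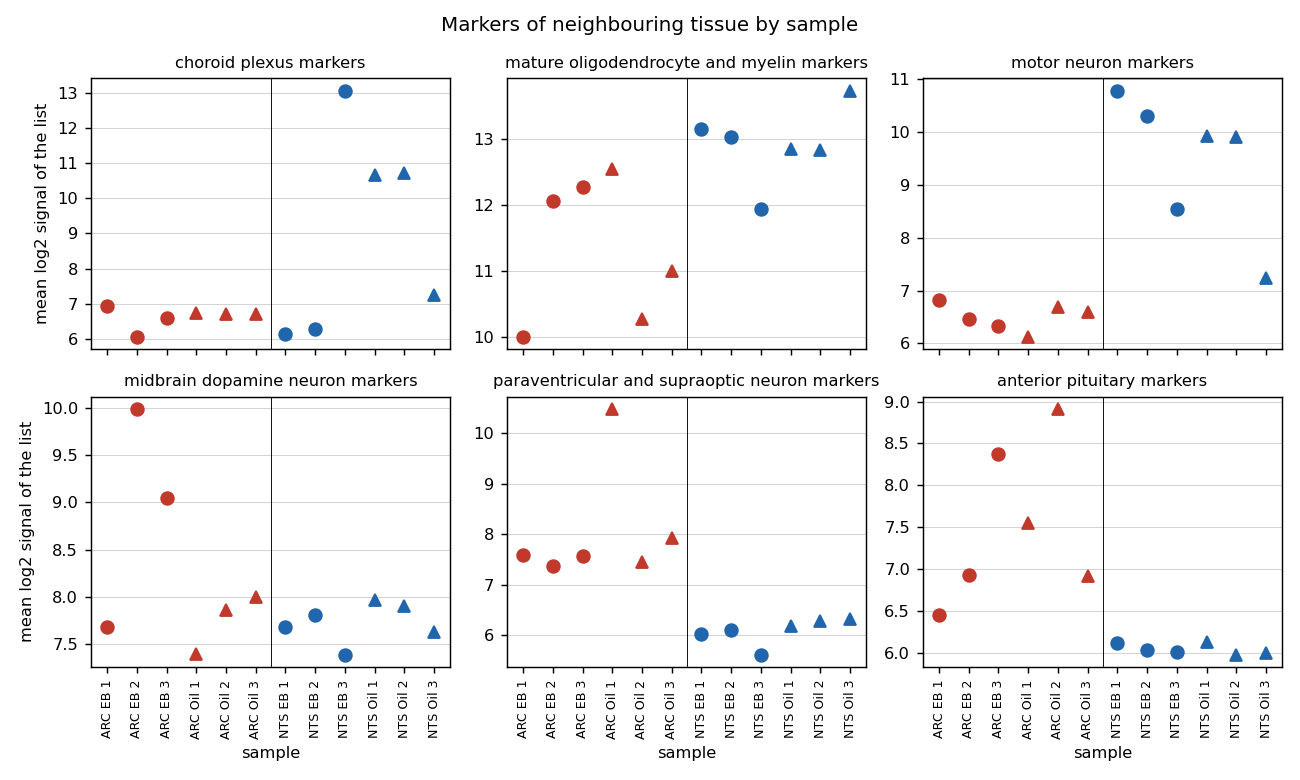
Mean signal (log2) over the markers of neighbouring tissues and of myelin in each ARC (red) and NTS (blue) sample, with circles for EB and triangles for Oil. Choroid plexus markers are high in NTS EB 3, Oil 1 and Oil 2 (10.67 to 13.05), dopamine neuron markers in ARC EB 2 and EB 3, paraventricular and supraoptic markers in ARC Oil 1, and pituitary markers in ARC Oil 2 and EB 3. The high paraventricular and supraoptic mean in ARC Oil 1 is carried by Oxt and Avp.

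With several samples that stood apart left out together, the counts over all probe sets grew. Without NTS Oil 3 alone they fell, to 838 higher and 643 lower from 953 and 681. Leaving out ARC EB 2, ARC EB 3, ARC Oil 1, NTS EB 3 and NTS Oil 3 together gave 1229 higher and 972 lower probe sets, and 15 neuropeptides were then called higher and 1 lower, and 18 myelin genes lower. Leaving out the 3 NTS samples with choroid plexus signal gave 1247 higher and 802 lower, but 12 forebrain factors called higher where all samples gave 16. The median of the dorsal vagal complex genes was then -0.18, against -1.16 with all samples. Averaging NTS Oil 1 and NTS Oil 2 gave 961 higher and 653 lower. These samples were chosen after their values were seen.

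The regional difference was then compared between treatments, to see whether EB changed what sets ARC apart from NTS. In the test of the difference itself, 0 of 23188 probe sets (0%) passed an adjusted p of 0.05, with 1369 (5.9%) under an unadjusted p of 0.05. The smallest p belonged to Rxfp1, a relaxin receptor, which had 8.97 to 9.19 in ARC EB and 6.76 to 7.55 in ARC Oil samples, and 6.45 to 6.66 in NTS EB and 6.09 to 7.18 in NTS Oil samples. Its regional difference was 2.52 in EB and 0.24 in Oil samples, a gap of 2.27 (adjusted p = 0.84). Smcp and Pate2, next in order, were below background in all samples. Fitted within a treatment, 664 probe sets were higher and 427 lower in ARC among EB samples, and 1131 were higher and 793 lower among Oil samples. The gap between these counts was not itself tested.

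The 6 ARC samples were also set against the 6 PVN samples, the other hypothalamic region. PVN Oil 1 and PVN Oil 3 stood apart from the other 4 in Oxt, Avp and Otp and in markers of midbrain dopamine neurons, though not in Sim1 or Crh. These 2 arrays were also much alike. Among 7282 probe sets with a mean signal over 10, the SD of their difference was 0.167 log2 units, where other PVN pairs gave 0.272 to 0.441. The other 4 were not 1 group by this measure. PVN EB 3 gave 0.381 and 0.382 with PVN Oil 1 and PVN Oil 3, but 0.407 to 0.441 with the rest. It also had the highest PVN signals of Pomc (9.47) and Fezf1 (12.1). Whether PVN Oil 1 and PVN Oil 3 are independent samples was not tested, so their agreement may not be that of 2 animals. The Oxt signals of PVN Oil 1 and PVN Oil 3 were 6.97 and 6.92, against 12.36 to 16.10 in the other PVN samples. Avp was 7.11 and 6.8, against 10.46 to 15.25, and Otp 6.88 and 6.94, against 7.34 to 7.96. Sim1, at 8.5 and 8.37, lay inside the 6.96 to 10.33 of the others, and Crh was 6.59 and 7.49, against 7.32 to 9.59. The mean over these 5 markers of paraventricular and supraoptic neurons was 7.21 and 7.30, against 9.02 to 11.7. The mean over midbrain dopamine neuron markers was 9.07 and 9.06 in them, against 6.78 to 6.91 in the other PVN samples. Of 23188 probe sets 520 (2.24%) were called, 440 (1.9%) higher and 80 (0.345%) lower in ARC, a comparison that shares its ARC samples with the one above. Without PVN Oil 1 and PVN Oil 3 the count was 480, 383 higher and 97 lower, of which 399 were among the 520. With only 1 of these 2 like samples left out, it was 504 without PVN Oil 1 and 505 without PVN Oil 3. Without PVN EB 3 alone it was 582. Npvf (3.10, adjusted p = 0.00582), Pomc (4.46, adjusted p = 0.00773), Hdc (4.11, adjusted p = 0.000774), Crym (3.86, adjusted p = 5.93e-05) and Fndc3c1 (4.11, adjusted p = 0.000462) were higher in ARC than in PVN. Fndc3c1, a fibronectin domain gene, was 4.37 ± 0.79 higher in ARC than in NTS (5.05 without ARC EB 2). The 5 calls against PVN were kept without PVN Oil 1 and PVN Oil 3, at differences of 3.63 to 4.53. Npy was called against PVN, at 12.65 to 14.49 in ARC and 11.61 to 12.45 in PVN (1.47, adjusted p = 0.0385), but lost its call without those samples (1.52, adjusted p = 0.099). Mc4r (-1.22, adjusted p = 5.67e-05), Tacr1 (-1.34) and Nmbr (-1.21) were lower in ARC than in PVN as well as lower than in NTS. Calcr (0.02), Esr1 (-0.08), Nrgn, the calmodulin-binding neurogranin (0.38), Gpr50 (0.31) and Nr2e1 (0.25) were not called between the hypothalamic regions with all samples. Without PVN Oil 1 and PVN Oil 3, Gpr50 was called higher in ARC (1.21, adjusted p = 0.0432), and Esr1 differed by -1.04 ± 0.39 (adjusted p = 0.091). Nrgn was at 10.47 to 11.72 in ARC against 6.54 to 7.77 in NTS (4.18 ± 0.25), with 5 of 6 NTS samples below background.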

How the data were processed

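RNA from tissue punches was measured on Rat Clariom S Pico arrays. The array service background-adjusted, normalized between arrays (a method of the RMA family) and log2 transformed the scans for the authors, who deposited 1 log2 signal per probe set and sample and analysed them in Transcriptome Analysis Console. These log2 signals were used as deposited, and replicates were not pooled. The 24834 probe sets include 1646 array controls, which were set aside. Of the 23188 for genes, the platform annotation pairs 15049 with a single symbol and the other 8139 stay unnamed. No read depth exists for arrays, so the number of arrays limits precision. Because the labels do not tie samples to rats, a spread between replicates may be partly technical.

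Region was tested over 12 arrays with limma 3.58.1 in R 4.3.3 (lmFit and eBayes, prior df 3.31), with treatment as a covariate and Benjamini-Hochberg adjustment over all 23188 probe sets. A call needed an adjusted p under 0.05 and a 2-fold change. The interaction with treatment and ARC against PVN were fitted in the same way. Each array's floor was the median of its 23 background probe sets. An "at least" fold is the mean of the brighter group over the higher of that floor and the dim probe set's own signal.

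Named genes are, in each direction, the 12 called probe sets with 1 symbol, no overlap between regions and the largest differences, and up to 4 called members of each list (or the 2 with the smallest p where none was called). They also include the feeding genes that the study names, the 3 genes with the smallest interaction p, and markers of neighbouring tissue with a sample over 3 log2 units above its region's median. Other list members that are named were chosen after their values were seen. The 29 lists hold 486 symbols, of which 413 were measured. The members and lists were chosen with earlier results of these data known. The fit was tested on simulated data. Alternatives were another normalization, centring, filters, weights, covariates, blocks, thresholds and leaving out samples. The replicate numbers did not pair ARC with NTS samples. Promoters came from a RefSeq table (GRCr8), read with Python 3.11.15. Figures were drawn with matplotlib 3.10.9.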

Additional observations from a re-analysis of the deposited data

Results flagged for a closer look

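Of 242 sets of 6 signals, 1 region and 1 named gene each, 25 (10.3%) held a sample apart from the other 5, by a gap to its nearest neighbour that, as a share of the set's range, exceeded Dixon's critical value for 6 samples. Chance flags about 1 in 20 such sets, but some of these genes, such as Oxt, Avp and Kcne2, were named for a single high sample, so the share of 10.3% cannot be read against that rate. No explanation was tested.

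NTS Oil 3 was the sample apart in 10 sets. It was low for Plagl1 (gap 0.703 of the range), Cartpt (0.681), Nr2f2 (0.704), Gabrq (0.701), Gabra4 (0.645), Dbh (0.685) and Gcg (0.672), and high for Slc6a3 (0.694), Sim1 (0.658) and Gabra5 (0.633). NTS EB 3 was low for Oxtr (0.675), Nr3c2 (0.679), Nefm (0.726), Nefh (0.752) and Glra1 (0.710), and high for the choroid plexus gene Kcne2 (0.647). Among ARC samples, Oil 1 was high for Oxt (0.880) and Avp (0.945) and low for Slc18a2 (0.695) and Prph (0.790). ARC EB 2 was low for Rarres2 (0.704) and Kcnj13 (0.646) and high for Tmem72 (0.675). ARC Oil 2 was low for Abcb1a (0.722), and ARC Oil 3 was high for Gpr83 (0.668).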

How the results depend on the processing

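Of the 99 named genes called, 90 kept their call whichever sample was left out, and 52 kept it under every alternative run. With 1 sample left out, 838 to 1116 probe sets were higher and 598 to 779 lower in ARC, the treatment interaction gave 0 to 2 (1 without ARC EB 1, 1 without ARC EB 2, 2 without NTS Oil 3), and ARC against PVN gave 446 to 613. The counts changed by more than 1.5 times only with other thresholds and with fewer samples. With no fold minimum 5867 were higher and 3966 lower, with a 4-fold minimum 164 and 141, and among EB samples alone 427 were lower. Quantile normalization gave 798 higher and 812 lower, a share of 49.6% higher where the deposited values gave 58.3%.

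A few differences changed sign, all of genes not called or of choroid plexus genes. Among EB samples alone, Pate2 was -0.17, Oxtr 0.31 and Smcp 0.61, and among Oil samples alone Igf2 was -0.073. Leaving out single samples, Igf2 ran from -0.085 to 1.36, Crh from -0.19 to 0.041, Smcp from -0.20 to 0.056, Prlr from -0.92 to 0.65 and Kcnj13 from -1.99 to 0.18. Without the 3 NTS samples with choroid plexus signal, an alternative chosen after seeing the data, Smcp was 0.039, Prlr 1.95, Kcnj13 2.23, Otx2 0.55, Kl 1.35 and Clic6 1.03. The cause was not tested beyond the plexus signal of those samples.

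Replicate numbers occur in both regions, but samples with the same number did not deviate together (r from -0.114 to 0.201 over 6 pairs, 1 of them over 0.1, and 1 of 6 ARC samples correlated best with its own number). With the replicate number as a block within treatment, 949 probe sets were higher and 681 lower, 0 passed for the interaction and 542 for ARC against PVN. Among named genes the block added the call of Npy and removed that of Folr1. Differences of genes near the background of these arrays may be understated, which was not tested, and 93 higher and 75 lower calls rest on signals below it in every sample.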

Other observations

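Several genes outside the lists differed as much as those within them, and were chosen after their values were seen. Higher in ARC were Cited1, a transcriptional coactivator, at 11.18 ± 1.14 in ARC and 7.004 ± 0.26 in NTS (mean ± SD, n = 6 each, at least 13.2-fold), Klf5, a zinc finger factor (3.28 ± 0.25 log2 units, ± SE), and Igsf1, a membrane glycoprotein of the hypothalamus and pituitary (2.78 ± 0.19). The forebrain synaptic kinase Camk2a (2.95 ± 0.37) and its relative Camkv (3.02 ± 0.26) were higher in ARC as well, as were the glutathione transferases Gstm6 (3.75 ± 0.32) and Gstm3 (3.32 ± 0.30), the glutathione peroxidase Gpx3 (2.91 ± 0.24) and the retinol carrier Rbp4 (2.80 ± 0.41).

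Lower in ARC was Slc30a3, the vesicular zinc transporter, at 5.62 ± 1.23 in ARC and 10.40 ± 0.31 in NTS (-4.79 ± 0.47). Sncg, γ-synuclein, had 10.40 ± 0.85 in ARC and 15.06 ± 0.51 in NTS (-4.65 ± 0.36). Calcb, a calcitonin gene-related peptide gene (-4.53 ± 0.67), Slc10a4, a vesicle protein of cholinergic neurons (-4.32 ± 0.58), and Tbx20, a factor of hindbrain motor neurons (-3.31 ± 0.45, at least 1.72-fold), were lower too. Dao, the D-amino acid oxidase of hindbrain astrocytes, was at least 3.94-fold lower (-3.91 ± 0.17). Among homeobox factors, Meis1 (-3.43 ± 0.19) and Pbx3 (-1.90 ± 0.27), both partners of Hox proteins, and Shox2 (-3.29 ± 0.35, at least 1.79-fold) were lower in ARC.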
